A study of Mus musculus with 6 samples.

Results

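The UDP-glucuronosyltransferases (UGTs) described here are 10 genes of the mouse liver, 5 of the Ugt1a locus on chromosome 1 (Ugt1a1, Ugt1a5, Ugt1a6a, Ugt1a6b and Ugt1a9) and 5 of the Ugt2 cluster on chromosome 5 (Ugt2a3, Ugt2b1, Ugt2b5, Ugt2b34 and Ugt2b36). They were taken by symbol from the 16727 genes kept, and all 10 were among the 9695 genes tested, those that averaged 1 FPKM or more. FPKM gives the fragments of a gene scaled by its length and by the library total. The group was chosen with the comparison of paternal exposure in view, above all for Ugt1a9, so the differences between the groups are given as a description with no test of their own. Liver RNA came from 6 wild-type male F1 mice. The 3 iAsF1-M mice had fathers that drank 250 ppb inorganic arsenic (iAs, given as sodium arsenite) for 6 weeks after weaning, and the 3 conF1-M mice had fathers kept on normal water. All fathers were C57BL/6 males bred with unexposed females, and the offspring of both groups had normal water and normal chow themselves and were sampled after 7 h of refeeding. The labels do not say which mice shared a father or a litter, so the spread between livers may not be that between fathers.

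UGTs sit in the membrane of the endoplasmic reticulum and join glucuronic acid from UDP-glucuronic acid to bilirubin, bile acids, steroid and thyroid hormones, drugs and plant compounds, which makes them soluble enough to leave in bile or urine. Ugt1a1 is the enzyme that conjugates bilirubin, the end product of haem breakdown, and its loss causes jaundice. The Ugt1a enzymes are made from a single locus in which each gene has its own exon 1 and its own promoter, spliced to a common set of later exons. Exon 1 codes for the part of the enzyme that binds the substrate, and the common exons code for the part that binds UDP-glucuronic acid and for the membrane anchor. The Ugt2 genes stand as separate copies along chromosome 5.

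Structures were read from the GENCODE annotation of GRCm38, the build used for alignment, with 1 transcript per gene, that with the longest coding sequence. These transcripts of the 5 Ugt1a members had 5 exons each, all on the forward strand. Exons 2 to 5 (132, 88, 220 and 871 bases, 1311 in all, between bases 88215044 and 88218997 of chromosome 1) were identical in the 5 transcripts. Exon 1 was 879 bases long in Ugt1a9 (chr1:88070800-88071678) and ended 143365 bases before exon 2. That of Ugt1a1 was 913 bases long (chr1:88211959-88212871) and ended 2172 bases before exon 2. The coding parts of these 2 exons were 55.4% identical. The closest relative of Ugt1a9 exon 1 was that of Ugt1a10 at 91.2%, and Ugt1a6a and Ugt1a6b were 97.0% identical there. The joined ends of exon 1 and exon 2 show what separates these mRNAs. The capitals mark the last 30 bases of each exon 1, and the lower case the start of the common exon 2, on the forward strand of GRCm38.
Ugt1a9: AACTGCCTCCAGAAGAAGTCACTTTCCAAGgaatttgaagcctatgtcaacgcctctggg
Ugt1a1: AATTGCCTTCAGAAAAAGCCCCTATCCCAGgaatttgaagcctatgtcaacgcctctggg
Ugt1a5: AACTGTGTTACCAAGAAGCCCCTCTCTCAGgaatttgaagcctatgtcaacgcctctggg
Ugt1a6a and Ugt1a6b: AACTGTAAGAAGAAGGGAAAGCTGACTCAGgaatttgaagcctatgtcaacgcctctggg
The capitals of Ugt1a6a and Ugt1a6b are the same, so this junction does not tell these 2 genes apart. The annotation starts both genes upstream of this exon 1, at base 88134809 for Ugt1a6a and base 88103252 for Ugt1a6b.

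**Figure D1:**
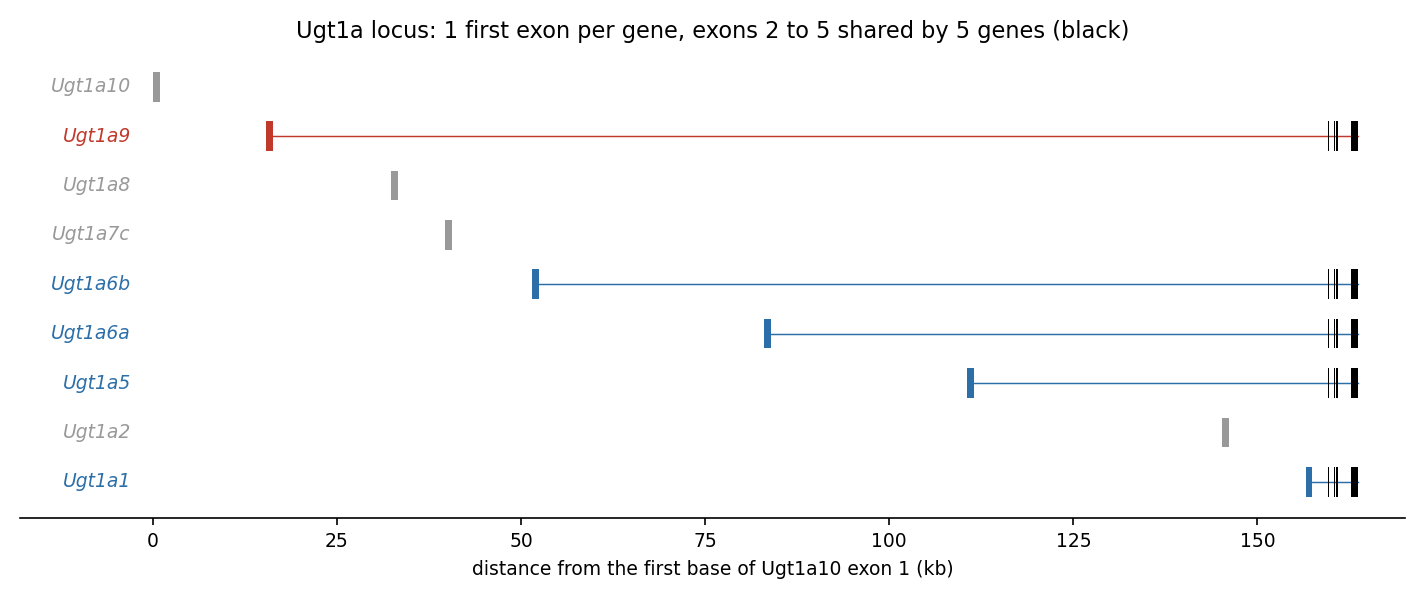
Map of the Ugt1a locus, with 1 row per gene (its transcript with the longest coding sequence) and distance in kb from the start of Ugt1a10 exon 1 on the horizontal axis. Coloured boxes are exon 1 of Ugt1a9 (red), the other members (blue) and other genes of the locus (grey, exon 1 only), and black boxes are exons 2 to 5 shared by the 5 members; exon 1 of Ugt1a9 lies farthest from them among the members and exon 1 of Ugt1a1 nearest.

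How far the FPKM of each gene stands for that gene alone was read from its transcript with the longest coding sequence. This was set against all annotated transcripts of other genes. Of all 100-base stretches of the Ugt1a9 transcript, 41.5% occurred in no other gene, and within its exon 1 this held for all 780 stretches. The share was 36.9% for Ugt1a5 and 30.8% for Ugt1a6b, but 2.3% for Ugt1a6a, most of whose exon 1 is also annotated in Ugt1a6b or Ugt1a7c, so the split between Ugt1a6a and Ugt1a6b is uncertain. For Ugt1a1 it was 22.6%, and 42.8% when only the same strand counted, since an antisense gene, Gm20528, overlaps its exon 1 and whether the counting used strand is not given in the sources used here. The program that divided fragments of exons 2 to 5 between the genes is not given either. Ugt1a2, with exons 2 to 5 identical to those of the members, was listed at 0.05 to 0.11 FPKM in iAsF1-M and 0.11 to 0.15 FPKM in conF1-M livers, so fragments of the common exons were not added to every gene. Among the Ugt2 members the share was 99.4% or more for Ugt2a3, Ugt2b1, Ugt2b34 and Ugt2b36. It was 75.3% for Ugt2b5, whose coding sequence was 97.0% identical to that of Ugt2b38.

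Each exon 1 has its own start site, and the 250 bases before the start given by RefSeq (GRCm38.p6) are printed for the 2 genes whose shares of the Ugt1a mRNA differed most between the groups. The capitals mark matches on either strand to GTTAAT (read as ATTAAC on the other strand), the core bound by HNF1, and to AGGTCA, the core bound by nuclear receptors.
Ugt1a9, chr1:88070529-88070778, forward strand: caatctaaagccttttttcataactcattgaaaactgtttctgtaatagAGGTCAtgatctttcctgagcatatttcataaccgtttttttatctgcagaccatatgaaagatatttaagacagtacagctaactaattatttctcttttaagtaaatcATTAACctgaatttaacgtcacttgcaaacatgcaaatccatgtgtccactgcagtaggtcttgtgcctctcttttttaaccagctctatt
Ugt1a1, chr1:88211709-88211958, forward strand: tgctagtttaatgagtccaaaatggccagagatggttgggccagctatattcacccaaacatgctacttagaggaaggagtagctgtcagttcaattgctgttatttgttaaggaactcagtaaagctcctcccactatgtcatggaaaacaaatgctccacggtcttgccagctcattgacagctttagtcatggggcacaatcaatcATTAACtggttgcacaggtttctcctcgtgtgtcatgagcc
Ugt1a9 had 1 match to each core, and Ugt1a1 had 1 to GTTAAT and 0 to AGGTCA, with no overlap between the matches. Of 32851 mouse promoters of this length, 6.43% held GTTAAT and 14% held AGGTCA. Neither window held GCGTG, the core bound by AHR (28.2% of promoters), nor TGACNNNGC, the core of the antioxidant element (10.2%). RefSeq places the start of Ugt1a9 upstream of the start in GENCODE. A promoter was matched for 9 of the 10 members, all but Ugt1a6b. Beyond the 2 printed, AGGTCA was also found before Ugt2b5 and Ugt2b36, and GTTAAT before Ugt1a6a and Ugt2a3. These matches describe letters only, and the motifs were chosen after the expression values had been seen.

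The livers carried the mRNA of all 10 members. Ugt2b5 was the most abundant in each of the 6 livers, between 557.6 and 801.4 FPKM, and Ugt1a5 the least, between 7.88 and 18.93 FPKM. By the mean over all livers the order was Ugt2b5 (666.1 FPKM), Ugt2b1 (337.1), Ugt2b36 (335.4), Ugt1a1 (182.7), Ugt2b34 (174.6), Ugt2a3 (137.5), Ugt1a6b (94.57), Ugt1a9 (56.02), Ugt1a6a (25.3) and Ugt1a5 (12.24). Neighbours in this order had overlapping ranges over the 6 livers, except that Ugt2b5, Ugt2b36 and Ugt2a3 each stood above the next gene in range. Ugt1a1 ranked 4th in every iAsF1-M liver and 5th in every conF1-M liver, where Ugt2b34 was 4th. Ugt1a9 spread most, with 6.60 times as much in its highest liver as in its lowest, against 1.14 to 2.40 times for the other 9 genes.

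**Figure D2:**
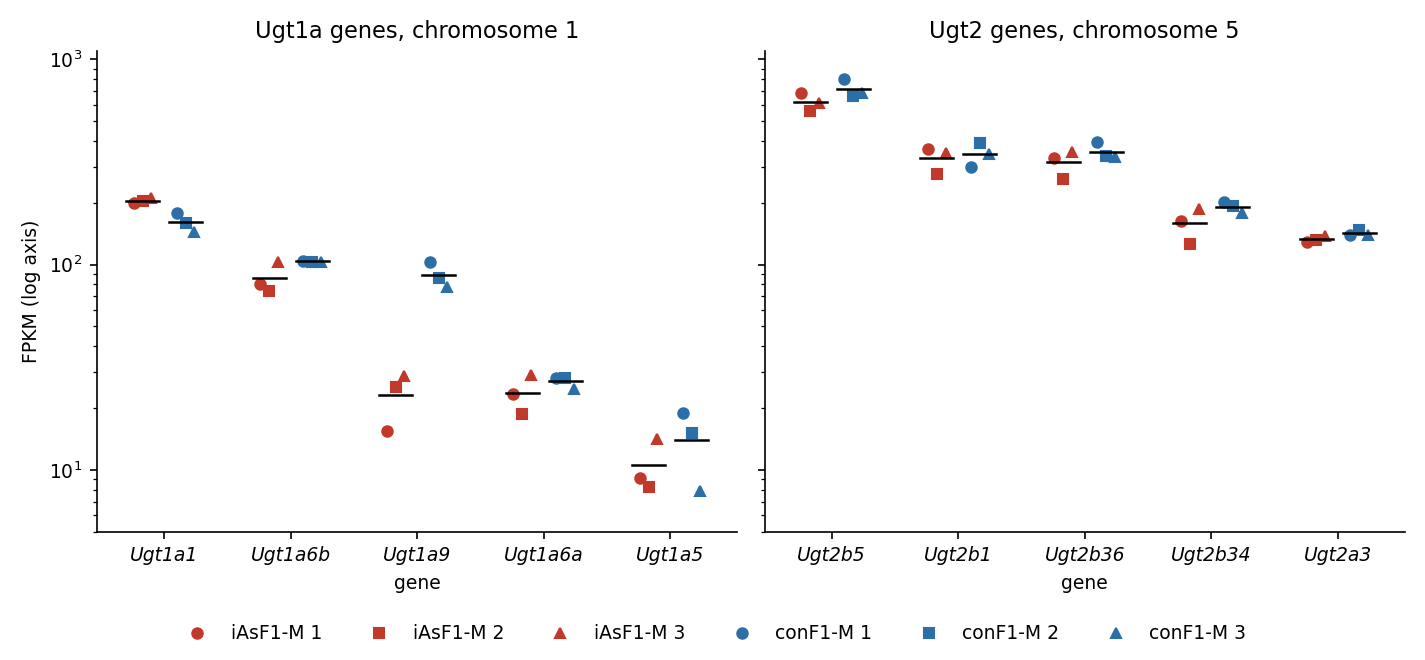
FPKM of the 10 members in each liver on a log axis, iAsF1-M in red to the left of conF1-M in blue, with a marker shape for each replicate number and a black line at the mean of the group. Ugt1a9 lay between 15.53 and 28.59 FPKM in iAsF1-M and between 77.84 and 102.47 FPKM in conF1-M livers; Ugt1a1 was the only member with all iAsF1-M livers above all conF1-M livers.

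Ugt1a9, whose human counterpart conjugates bulky phenols and drugs such as propofol, had 15.53, 25.43 and 28.59 FPKM in iAsF1-M livers, against 102.47, 86.27 and 77.84 FPKM in conF1-M livers. The groups were far apart, with the highest iAsF1-M liver below the lowest conF1-M liver. The means were 23.2 ± 6.81 and 88.9 ± 12.5 FPKM (SD, n = 3 each), so that iAsF1-M livers held 26.1% of the conF1-M level. At the depth estimated from the smallest steps between FPKM values, 21950000 to 24000000 fragments per library, this corresponds to about 816, 1306 and 1374 fragments in iAsF1-M and 5262, 4308 and 3793 in conF1-M livers. These numbers are rough, since the steps were too unclear to recover counts. They also rest on the whole transcript, of which 1311 bases are shared with other Ugt1a genes. The log2 fold change of FPKM + 1 was -1.93 ± 0.22 (SE), and in the fit over all genes Ugt1a9 ranked 6th by p, with an adjusted p of 0.041 (limma with Benjamini-Hochberg adjustment). It was 1 of 6 genes past the threshold of 0.05, 0.0619% of the genes tested, and 1 of 4 that were lower (0.0413%). The others were Ren1, Ctse and Fam213b, which fell, and Pttg1 and Hddc3, which rose. That adjusted p is part of what chose the gene and is no independent evidence. Among the alternatives, it went past 0.05 when any 1 conF1-M liver or iAsF1-M 2 was left out (0.10 to 0.29), without a filter on low values (0.21), with a robust variance model (0.099), and with a minimum mean of 10 FPKM (0.079). The fold change itself lay between -2.09 and -1.67 with any 1 liver left out.

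Ugt1a1, the bilirubin enzyme, stood the other way. It had 198.47, 203.38 and 211.97 FPKM in iAsF1-M livers, against 177.83, 160.08 and 144.68 FPKM in conF1-M livers. Every iAsF1-M liver was above every conF1-M liver, with means of 205 ± 6.83 and 161 ± 16.6 FPKM (SD, n = 3 each). The log2 fold change was 0.35 ± 0.11 (SE), with an adjusted p of 0.58 (limma), so that the difference did not pass the test over all genes. It lay between 0.28 and 0.42 with any 1 liver left out.

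Ugt1a6b and Ugt1a6a, whose human counterpart UGT1A6 conjugates small flat phenols, were lower on average without passing the test. Ugt1a6b had 80.15, 74.35 and 102.47 FPKM in iAsF1-M livers and 104.52, 103.23 and 102.71 FPKM in conF1-M livers. The conF1-M livers were nearly equal, iAsF1-M 3 lay just under them, and the other 2 iAsF1-M livers lay well below, with a log2 fold change of -0.28 ± 0.13 (SE). Ugt1a6a had 23.41, 18.71 and 28.87 FPKM in iAsF1-M livers and 28.03, 27.95 and 24.83 FPKM in conF1-M livers, with overlap between the groups and a log2 fold change of -0.20 ± 0.15 (SE). Since the 2 genes are hard to tell apart, their sum is also given: 109.3 ± 19.8 FPKM in iAsF1-M and 130.4 ± 2.59 FPKM in conF1-M livers (SD, n = 3 each), where iAsF1-M 3 lay within the conF1-M range. Ugt1a5 had 9.17, 8.23 and 14.19 FPKM in iAsF1-M livers and 18.93, 15.04 and 7.88 FPKM in conF1-M livers. These overlapped, and the spread within each group was about as wide as the difference, with a log2 fold change of -0.33 ± 0.31 (SE).

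The locus as a whole differed less than Ugt1a9 did. The 5 members summed to 326.7, 330.1 and 386.1 FPKM in iAsF1-M livers, against 431.8, 392.6 and 357.9 FPKM in conF1-M livers. The groups overlapped, since iAsF1-M 3 was above conF1-M 3, and the means were 347.6 ± 33.3 and 394.1 ± 36.9 FPKM (SD, n = 3 each), a difference of -46.5 FPKM. This difference was -27.6 FPKM without conF1-M 1 and -26.8 FPKM with median-ratio scaling. The 4 members other than Ugt1a9 summed to 324.5 ± 28.8 FPKM in iAsF1-M and 305.2 ± 24.6 FPKM in conF1-M livers (SD, n = 3 each), again with overlap.

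What differed most was the make-up of the sum, a ratio within each library that does not depend on scaling between libraries. Ugt1a9 made up 4.75%, 7.7% and 7.41% of the Ugt1a sum in iAsF1-M livers, against 23.73%, 21.98% and 21.75% in conF1-M livers. The conF1-M livers lay within a narrow band, and each iAsF1-M liver was far under it, with means of 6.62 ± 1.62% and 22.5 ± 1.09% (SD, n = 3 each). Ugt1a1 took 60.74%, 61.61% and 54.9% in iAsF1-M livers and 41.19%, 40.78% and 40.42% in conF1-M livers. Its share was above the conF1-M band in each iAsF1-M liver and least so in iAsF1-M 3. Because the shares are parts of the same sum, a lower Ugt1a9 share by itself raises those of the other members, so the Ugt1a1 share restates part of the Ugt1a9 difference. The shares of the other members overlapped between the groups, at 24.5 ± 2.01% and 26.4 ± 2.25% for Ugt1a6b, 6.77 ± 0.967% and 6.85 ± 0.323% for Ugt1a6a, and 2.99 ± 0.612% and 3.47 ± 1.14% for Ugt1a5 (iAsF1-M and conF1-M means ± SD, n = 3 each). The ratio of Ugt1a9 to Ugt1a1 was 0.08, 0.13 and 0.13 in iAsF1-M livers, against 0.58, 0.54 and 0.54 in conF1-M livers. The ratio of Ugt1a1 to Ugt1a6b also stood apart, at 2.43 ± 0.336 in iAsF1-M and 1.55 ± 0.146 in conF1-M livers (SD, n = 3 each), while that of Ugt1a6a to Ugt1a6b overlapped (0.275 ± 0.021 and 0.26 ± 0.0161).

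**Figure D3:**
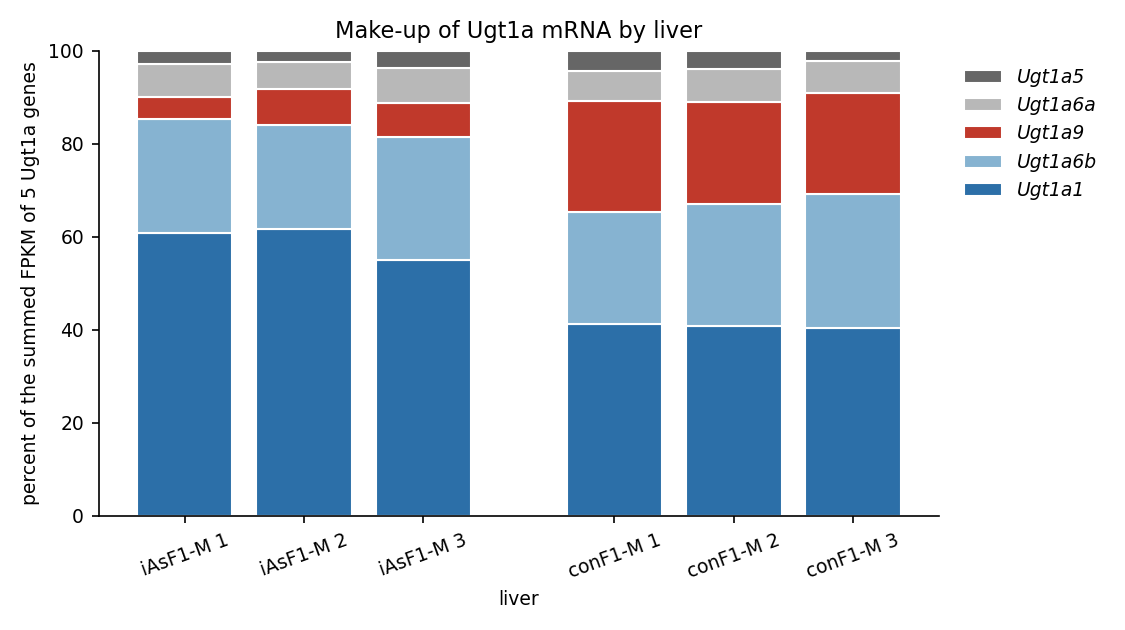
Percent of the summed FPKM of the 5 Ugt1a members taken by each gene, 1 bar per liver, iAsF1-M on the left and conF1-M on the right. The Ugt1a9 part (red) is 4.75% to 7.7% in iAsF1-M and 21.75% to 23.73% in conF1-M livers, and the Ugt1a1 part (dark blue) is 54.9% to 61.61% and 40.42% to 41.19%.

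The Ugt2 members, whose enzymes conjugate steroids, bile acids and many drugs, were slightly lower on average in iAsF1-M livers, and none of the 5 passed the test. Ugt2b5 had 686.82, 557.63 and 609.59 FPKM in iAsF1-M livers and 801.39, 658.89 and 682.46 FPKM in conF1-M livers, with a log2 fold change of -0.21 ± 0.13 (SE). Only iAsF1-M 1 reached into the conF1-M range. Ugt2b36 had 331.28, 261.06 and 354.68 FPKM in iAsF1-M livers and 393.76, 336.61 and 335.21 FPKM in conF1-M livers. Ugt2b34 had 163.69, 125.84 and 187.02 FPKM in iAsF1-M livers and 200.61, 192.47 and 178.08 FPKM in conF1-M livers. Both overlapped between the groups through iAsF1-M 3 and were lowest in iAsF1-M 2, with log2 fold changes of -0.18 ± 0.14 for Ugt2b36 and -0.28 ± 0.15 for Ugt2b34 (SE). Ugt2a3, whose human counterpart conjugates bile acids, had 129.28, 131.79 and 137.44 FPKM in iAsF1-M livers and 139.20, 147.54 and 140.01 FPKM in conF1-M livers. It was the steadiest member. Its groups did not overlap, and its log2 fold change was -0.10 ± 0.09 (SE). Ugt2b1 had 365.02, 275.20 and 348.12 FPKM in iAsF1-M livers and 299.48, 390.58 and 343.91 FPKM in conF1-M livers, which crossed each other, and its log2 fold change of -0.07 ± 0.15 (SE) turned to 0.01 with median-ratio scaling between libraries.

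The Ugt2 members summed to 1676, 1352 and 1637 FPKM in iAsF1-M livers, against 1834, 1726 and 1680 FPKM in conF1-M livers. Each iAsF1-M liver was below each conF1-M liver, if barely for iAsF1-M 1, and the means were 1555 ± 177 and 1747 ± 79.4 FPKM (SD, n = 3 each). The difference of -191.9 FPKM was -90.3 FPKM without iAsF1-M 2 and -103.1 FPKM with median-ratio scaling, and with all 10 measured Ugt2 genes in the sum the groups overlapped. No member's share of the Ugt2 sum stood apart. Ugt2b5 took 39.8 ± 2.24% in iAsF1-M and 40.8 ± 2.76% in conF1-M livers, and Ugt2b1 took 21.1 ± 0.717% and 19.8 ± 3.2% (SD, n = 3 each). The Ugt1a sum was 18.3 ± 1.78% of the 10 members in iAsF1-M and 18.4 ± 0.754% in conF1-M livers (SD, n = 3 each).

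Over the 10 members, 9 log2 fold changes were below 0, with a median of -0.20. In the fit over all genes 69.6% were below 0, with a median of -0.07. With median-ratio scaling, which brought the median of all genes to -0.002, 8 of the members were below 0 and their median was -0.13. With quantile normalization 9 were below 0, also with a median of -0.13. The groups did not overlap for 4 members (Ugt1a1, Ugt1a6b, Ugt1a9 and Ugt2a3), beside 14.2% of all genes tested. Of these 4, the 3 with iAsF1-M below stand beside 11.8% of all genes, and Ugt1a1 beside 2.37% with iAsF1-M above. An unadjusted p under 0.05 in limma was found for 2 members, beside 8.17% of all genes, namely Ugt1a9 (6.75% of all genes were lower at that p) and Ugt1a1 (1.42% were higher). Ugt1a9 was also the only member with a log2 fold change below -1, beside 0.248% of all genes. As the members were chosen on this comparison, nothing is read from these counts. Across the 6 livers, 6 members (Ugt1a6a, Ugt1a6b, Ugt2b1, Ugt2b5, Ugt2b34 and Ugt2b36) had their lowest value in iAsF1-M 2.

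**Figure D4:**
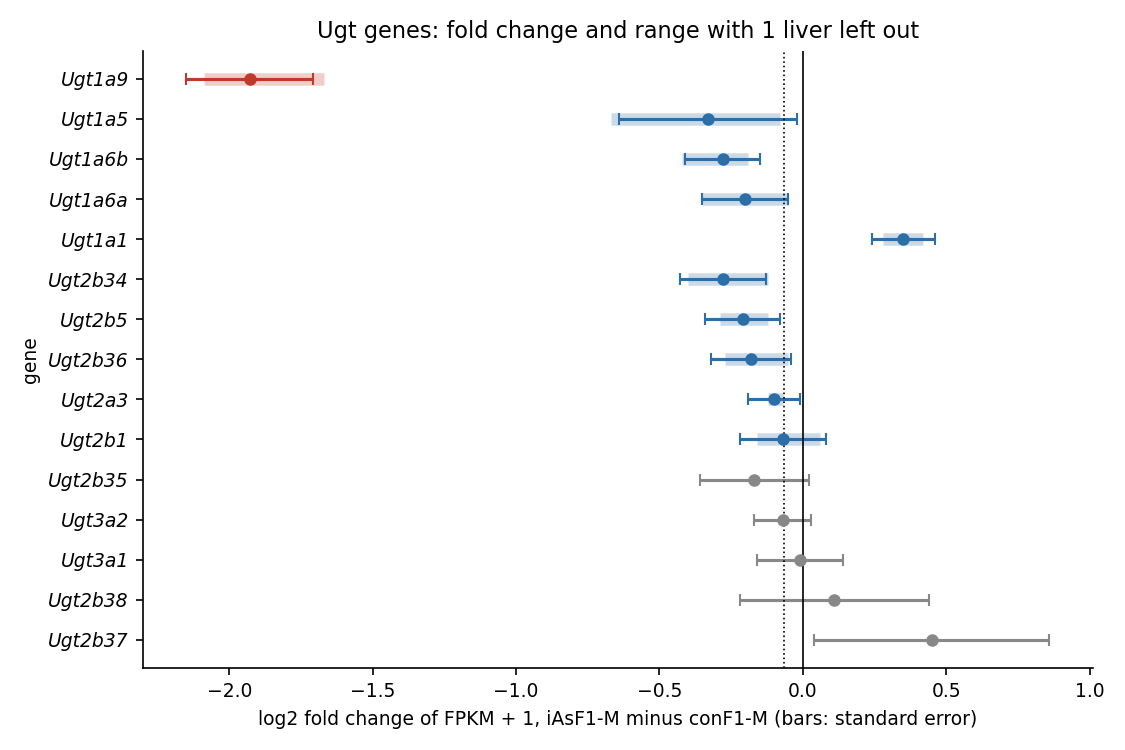
Log2 fold change of FPKM + 1 (iAsF1-M minus conF1-M) with its standard error for the 10 members (Ugt1a9 red, others blue) and the 5 other Ugt genes tested (grey). Pale bands give the range with any 1 liver left out and the dotted line the median of all genes at -0.066; Ugt1a9 stands at -1.93, and the other members lie between -0.33 and 0.35.

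Of 12 other Ugt genes listed, 11 were measured and 5 were tested, and none of the 5 passed (limma; 0 also had an unadjusted p under 0.05). Ugt2b35 had 75.02, 49.07 and 83.74 FPKM in iAsF1-M livers and 83.35, 75.36 and 70.72 FPKM in conF1-M livers, again lowest in iAsF1-M 2. Ugt3a1 and Ugt3a2, members of a family that in humans uses other sugars than glucuronic acid, summed to 213.5 ± 16.6 FPKM in iAsF1-M and 221.5 ± 20.1 FPKM in conF1-M livers (SD, n = 3 each). Ugt2b38 (3.62 to 8.63 FPKM in iAsF1-M and 3.48 to 7.86 FPKM in conF1-M livers) and Ugt2b37 (0.40 to 3.52 and 0.42 to 1.04 FPKM) were low and overlapped. Ugt1a10, the nearest relative of Ugt1a9 in exon 1, was at 0.34, 0.62 and 0.95 FPKM in iAsF1-M livers and 0.80, 0.87 and 0.65 FPKM in conF1-M livers. These levels overlapped, and even the lowest Ugt1a9 value of any liver was many times higher. Ugt1a2, Ugt1a7c, Ugt2a1, Ugt2a2 and Ugt8a stayed at or below 0.22 FPKM in each liver. Ugt1a8 is drawn on the map of the locus, but its expression was not analysed here.

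The other genes of glucuronidation were followed through 11 lists that were written with earlier results of these data known. Of 104 genes in all, 87 were tested and none passed in either direction (limma), while 7 had an unadjusted p under 0.05, beside 8.17% of all genes tested. Without iAsF1-M 3, where 73 of all 9704 genes tested passed, 4 genes of the lists did. Among these 4 were Ces1g and Foxa2, which were lower, and Nnmt, which was higher. All 10 genes that make, move or use UDP-glucuronic acid had a log2 fold change below 0, with a median of -0.20, and 8 of them did with median-ratio scaling (median -0.13), beside 69.6% of all genes on the given scale and 50.9% after that scaling. Ugdh, which makes UDP-glucuronic acid, had 52.76, 40.90 and 65.48 FPKM in iAsF1-M livers and 86.08, 68.45 and 59.61 FPKM in conF1-M livers. Slc35d1, which carries it into the endoplasmic reticulum, had 17.55, 16.01 and 21.31 FPKM in iAsF1-M livers and 25.35, 22.12 and 20.10 FPKM in conF1-M livers. In both genes iAsF1-M 3 overlapped with conF1-M 3, and the adjusted p was 0.62 (limma).

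On the side of the substrates, all 4 haem breakdown genes were below 0 with a median of -0.09 (2 of them with median-ratio scaling), among them the biliverdin reductases Blvra (-0.12) and Blvrb (-0.11). Gusb, the glucuronidase that cleaves the products, was at 0.01. The 9 tested genes for transport of bilirubin and its conjugates had a median of -0.15, with 7 below 0 (5 with median-ratio scaling). The lowest p belonged to Gsta2 (-0.57 ± 0.24 SE, adjusted p of 0.61 in limma) and Gsta1 (-0.86 ± 0.40 SE, 0.62), glutathione transferases that also bind bilirubin in the cell.

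Among 17 transcription factors that act on Ugt genes, 12 were below 0, with a median of -0.14 (9 with median-ratio scaling, median -0.06). Cebpa, a factor of mature hepatocytes, had 104.30, 97.62 and 110.12 FPKM in iAsF1-M livers and 154.82, 122.41 and 147.54 FPKM in conF1-M livers. The groups did not overlap, yet the adjusted p was 0.56 (limma, log2 fold change of -0.44 ± 0.11 SE). Nr3c1, the glucocorticoid receptor, stood at -0.32 ± 0.10 (SE) with an adjusted p of 0.58. The targets of the receptors that induce Ugt genes went different ways. Among AHR targets, Cyp1a2 had 236.43, 202.17 and 332.99 FPKM in iAsF1-M livers and 334.03, 520.81 and 353.23 FPKM in conF1-M livers (-0.65 ± 0.23 SE, adjusted p of 0.59), while Tiparp was at 0.22 and Nqo1 at 0.01. Cyp1a1, below the filter, had 0.12, 0.22 and 0.20 FPKM in iAsF1-M livers and 0.41, 0.60 and 0.38 FPKM in conF1-M livers. Ahrr and Cyp1b1, also below it, overlapped between the groups. Of 9 CAR and PXR targets tested, 7 were below 0 (median -0.23), with Cyp3a13 at 0.30 and Gstm1 at -0.40. Of 11 NRF2 targets tested, 9 were below 0 (median -0.21; 8 with median-ratio scaling), and the smallest p belonged to Gstm1 and Gsta2. All 11 PPARA targets tested were above 0 (median 0.30), also with median-ratio scaling. Of all genes, 69.6% were below 0 on the given scale and 50.9% after that scaling. The groups overlapped for each of the 11, and 0 had an unadjusted p under 0.05 in limma. The smallest p belonged to Pdk4 (1.04 ± 0.47 SE, adjusted p of 0.62 in limma) and Cyp4a10 (0.47 ± 0.32 SE, 0.66). Both were highest in iAsF1-M 2, at 7.26 and 3129.50 FPKM. The other conjugating enzymes had a median of -0.08. Nnmt, which methylates nicotinamide, was at 1.24 ± 0.32 (SE) with an adjusted p of 0.56, and Nat2, an N-acetyltransferase, at -0.19.

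Genes beside the clusters gave no call. Within 500 kb of the Ugt1a members, 14 genes were measured and 6 tested, with log2 fold changes between -0.28 and 0.16. The smallest p belonged to Hjurp, a chaperone of centromeric histone (-0.28 ± 0.13 SE), and Usp40, a deubiquitinase (0.16 ± 0.10 SE), both with an adjusted p of 0.62 (limma). Dnajb3, which lies inside the locus on the reverse strand, was below the filter at 0.00, 0.26 and 0.36 FPKM in iAsF1-M livers and 2.01, 0.90 and 0.18 FPKM in conF1-M livers. Beside the Ugt2 members 7 genes were measured and 3 tested, namely Ythdc1 (0.11), Sult1d1 (0.16) and Sult1b1 (-0.24). No neighbour of either cluster had an unadjusted p under 0.05 in limma.

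The genes whose levels were most like those of Ugt1a9 over the 6 livers, by Pearson r of log2(FPKM + 1), were Ppia (0.991), Washc1 (0.989), Mrpl50 (0.988), Triobp (0.987) and Immp1l (0.987). Ppia, cyclophilin A, had 557.0, 580.9 and 597.4 FPKM in iAsF1-M livers and 660.2, 647.6 and 656.2 FPKM in conF1-M livers, a far smaller gap than that of Ugt1a9. The most opposite were Oasl2 (-0.993), Gbp3 (-0.969), Rasal2 (-0.967), Mt2 (-0.960) and C9orf72 (-0.960). Mt2, a metallothionein that binds zinc and other metals, had 145.1, 99.73 and 63.46 FPKM in iAsF1-M livers and 28.69, 21.01 and 37.58 FPKM in conF1-M livers. These coefficients rest on 6 livers in 2 groups and describe likeness only, since separation of the groups by itself raises their size. The order of livers within the groups counts too: Ugt1a6b and Ugt2a3 also separated the groups and had 0.77 and 0.85.

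Hepatocyte markers were abundant, with Alb (albumin) at 26547.72 to 40155.37 FPKM in iAsF1-M and 31681.79 to 37316.18 FPKM in conF1-M livers, and none of the 6 listed passed the test. In whole liver, fewer cells of a type and less RNA per cell cannot be told apart. The 4 measured kidney markers (Kap, Nphs1, Slc22a6 and Slc34a1) summed to 0.03 to 0.59 FPKM in iAsF1-M and 0 to 0.09 FPKM in conF1-M livers, and none of them passed the filter. Of the 5 measured small intestine markers, Lct, Sis and Alpi were listed at 0 in each iAsF1-M liver and in 2 conF1-M livers, with 0.06, 0.44 and 1.15 FPKM in conF1-M 1. Vil1 had 0.00, 0.03 and 0.01 FPKM in iAsF1-M livers and 0.23, 0.05 and 0.08 FPKM in conF1-M livers. Fabp2, a fatty acid binding protein, was high in each liver, at 95.76, 118.50 and 132.38 FPKM in iAsF1-M and 96.56, 101.56 and 103.37 FPKM in conF1-M livers, which overlapped (log2 fold change of 0.19, adjusted p of 0.66 in limma). Pericentral (median log2 fold change -0.11) and periportal (0.08) hepatocyte markers had no call. Markers of sinusoidal endothelium had log2 fold changes below 0 in 6 of 7 genes (median -0.40). They summed to 49.4 to 58.9 FPKM in iAsF1-M and 65.2 to 83.7 FPKM in conF1-M livers. Those of stellate cells were below 0 in 6 of 6 (median -0.24, sums of 125.8 to 145.6 and 142.7 to 191.7 FPKM). Both counts were the same with median-ratio scaling, beside 69.6% of all genes before it and 50.9% after it. An unadjusted p under 0.05 (limma) was found for 4 endothelial markers and 1 stellate marker, beside 8.17% of all genes. None of these genes passed either (limma). Kupffer markers had a median of -0.19, with 4 below 0 and 2 above, among them Marco at 1.84 ± 0.85 (SE). The median of cholangiocyte markers was 0.04. The part of these cell types in the Ugt values was not tested. The livers gave summed FPKM of 643496 to 699686, and the distances of iAsF1-M 3 over all genes on the log2 scale were 33.4 and 36.5 to its own group, against 25.3 to 32.9 to the conF1-M livers. Without iAsF1-M 3 the log2 fold change of Ugt1a9 was -2.09, and its share of the Ugt1a sum differed by -16.3 percentage points, against -15.9 with all livers.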

How the data were processed

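RNA-seq of 6 livers was analysed, 3 iAsF1-M and 3 conF1-M, grouped by the sample labels. The authors prepared TruSeq libraries, sequenced paired-end reads and aligned them to GRCm38 with HISAT2. The deposited values are FPKM rounded to 2 decimals; the program and annotation behind them are not given in the sources used here, and the authors called genes with DESeq2. Of 16743 identifiers, the 16 on 2 lines were left out. Names, exons and sequences came from GENCODE vM21 (GRCm38), promoters from RefSeq.

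A linear model was fitted by limma 3.58.1 (R 4.3.3) to log2 values of FPKM after a pseudocount of 1, with a trend in eBayes, two-sided tests, a filter that kept the 9695 genes averaging 1 FPKM or more, Benjamini-Hochberg adjustment, a threshold of 0.05 and no block. A fold change on this scale is understated for low genes. The test was also run on simulated data with normal noise of the same SD for every gene and independent livers. That setting differs from these livers, so nothing is read from it about the calls. Sums and shares were taken per liver. The step that 1 fragment makes in low FPKM gave an estimate of depth, by which 50.0% to 59.7% of values came within 0.15 of a whole number, too few to recover counts. P-values measure the spread between these mice.

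The members and gene lists were chosen with earlier results of these data known. The text names all members and measured Ugt genes, for other lists and for neighbours the genes with the lowest p, and the 5 genes most like and most unlike Ugt1a9; other genes were named after their values were seen. The values of 1 listed gene are not reported here. Alternatives were other pseudocounts, filters, scalings and variance models, library weights, a replicate block and leaving out each liver.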

Additional observations from a re-analysis of the deposited data

How the results depend on the processing

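Ugt1a9 was lower in iAsF1-M livers under each of the 16 alternatives, a count fixed in large part beforehand. Its sign could not turn when 1 liver was left out, since the groups did not overlap. Filters and variance models do not alter its fold change. The log2 fold change was -2.09 to -1.67 when 1 liver was left out and -1.99 to -1.76 otherwise. The limma adjusted p of Ugt1a9 ranged from 0.011 to 0.29. The fold change was -1.93 with no filter on low values (adjusted p of 0.21), with a minimum mean of 10 FPKM (0.079), with robust eBayes (0.099) and with the replicate block (0.12), none of which passed 0.05. The call was also lost without iAsF1-M 2 (0.10) and without any 1 conF1-M liver (0.29, 0.26 and 0.11 for numbers 1, 2 and 3). In these 8 settings 0 members passed, so that 0 to 1 member passed with 1 liver left out. Over all genes 6 passed, against 3 without a filter, 1 with the minimum of 10 FPKM, and 3 to 73 with 1 liver left out; 73 passed without iAsF1-M 3, and with them 4 genes of the pathway lists (0 to 4 with 1 liver left out). The cause was not tested.

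Ugt2b1 changed sign to 0.01 with median-ratio scaling, 0.03 without conF1-M 2 and 0.06 without iAsF1-M 2 (-0.16 to 0.06 with any 1 liver left out), none past the threshold. The other 8 members kept their sign and side of the threshold in all 16 alternatives. The differences of the Ugt1a sum, the Ugt2 sum and the Ugt1a9 share, which have no test, kept their sign in all 9 of theirs. For the Ugt2 sum and the Ugt1a9 share the groups did not overlap, so leaving out 1 liver could not turn the sign. Median-ratio scaling could not alter the share. In all 13 alternatives for the neighbours, 0 passed. Livers with the same number did not vary together (correlations of deviations of 0.167, -0.102 and -0.021), so the number was not taken as a pairing, and the replicate block moved no other call of a member. Depth is known only as an estimate, and the split of fragments of exons 2 to 5 between Ugt1a genes could not be checked.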
